A study of Mus musculus with 15 samples.

Results

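Tetraspanins and other surface proteins linked to macrophage fusion were followed on 15 expression arrays of RAW264.7 cells. The genes were listed by name, and the rule itself uses no measured value: 7 tetraspanins (Cd9, Cd81, Cd63, Cd82, Cd53, Cd37 and Cd151) and 3 other membrane proteins (Cd44, Cd47 and Sirpa). The list was chosen with earlier results of these data known, so it is not independent of them. All probe sets annotated to 1 of these symbols alone were kept. They number 20 of the 12422 probe sets tested and stand for 10 of the 8251 genes with a probe set of their own.

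RAW264.7 is a mouse macrophage-like line that becomes osteoclast-like with RANKL, a TNF-family cytokine whose receptor is RANK. The study followed this change over days of culture beside untreated cells of like age. Per the labels, the line was grown in alpha-MEM with serum, and serum-free medium with or without RANKL was given on days 0 and 3. Control cells, labelled mononuclear throughout, gave 1 array on day 1, 2 each on days 2, 3 and 4 and 1 on day 5. RANKL cells labelled mononuclear gave 1 array on day 1 and 2 on day 2, and those labelled multi-nuclear gave 2 on day 4 and 2 on day 5. RANKL cells of day 3 were not analysed here. Whether replicates are separate cultures is not stated, so the tests may cover only technical spread. The RANKL dose, the passage and the share of cells with several nuclei are not given in the sources used here.

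Tetraspanins are small proteins that cross the membrane repeatedly and gather integrins, proteases and immunoglobulin-type receptors into membrane patches. CD9 and CD81 are known for restraining or helping fusion in sperm-egg binding, muscle and macrophages, and CD63 is the family member of late endosomes and lysosomes. CD47 on one cell binds SIRPA on another, and SIRPA passes an inhibitory signal through the phosphatases SHP-1 and SHP-2. This pair and CD44, the receptor for hyaluronan and osteopontin, have long been studied in the fusion of macrophages into giant cells and osteoclasts.

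Promoter sequence is shown for 3 of the genes: Cd47 and Cd53, whose signals moved together across the arrays, and Cd9, whose signals did not follow theirs. Each window holds the 250 bases before a RefSeq start in GRCm38.p6, read 5′ to 3′ along the gene. Cd47 has another such window at chr16:49855411-49855660, and its annotated gene begins at 49851328, before both. Cd47 lies at chr16:49855404-49855653 on the plus strand, Cd53 at chr3:106790150-106790399 on the minus strand and Cd9 at chr6:125494761-125495010 on the minus strand.
Cd47: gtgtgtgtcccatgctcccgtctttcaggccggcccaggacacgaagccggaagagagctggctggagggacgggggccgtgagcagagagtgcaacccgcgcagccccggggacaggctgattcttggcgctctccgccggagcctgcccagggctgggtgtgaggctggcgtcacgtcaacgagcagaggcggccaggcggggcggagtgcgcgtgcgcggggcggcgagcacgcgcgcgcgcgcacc
Cd53: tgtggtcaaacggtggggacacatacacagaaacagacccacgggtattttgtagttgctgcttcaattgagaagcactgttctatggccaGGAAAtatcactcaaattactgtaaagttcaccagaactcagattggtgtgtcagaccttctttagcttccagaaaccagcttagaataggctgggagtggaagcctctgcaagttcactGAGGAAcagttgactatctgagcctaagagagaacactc
Cd9: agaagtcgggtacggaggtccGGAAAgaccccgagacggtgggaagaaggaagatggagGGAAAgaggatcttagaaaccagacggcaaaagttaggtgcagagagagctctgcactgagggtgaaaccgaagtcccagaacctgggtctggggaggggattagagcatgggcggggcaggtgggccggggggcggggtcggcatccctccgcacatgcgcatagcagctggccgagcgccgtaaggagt
Capitals mark the letters of GAGGAA, the core bound by the myeloid factor PU.1, and of GGAAA, the core bound by NFAT, which works downstream of RANK. Both strands were searched, as was TGANTCA, the AP-1 site. A GAGGAA followed by A also holds GGAAA, so these 2 motifs can overlap. The Cd53 window held GAGGAA 39 bases before the start and GGAAA 159 bases before it. The Cd9 window held GGAAA 229 and 191 bases before the start and no GAGGAA. The Cd47 window, with a GC content of 73.2% against 45.2% for Cd53 and 61.6% for Cd9, held none of the 3 motifs. Of 32851 mouse promoter windows of this length, 23.3% held GAGGAA, 55.6% GGAAA and 6.75% TGANTCA, so these matches are common and are given as a description only. RefSeq promoters were matched by symbol for 9 of the 10 genes.

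Signals from MAS5 had been scaled to a 2% trimmed mean of 500 per array. Array medians lay between 103 and 149, and 50.4% to 56.2% of probe sets were above 100. Of 8 macrophage markers, 5 were above 100 on all arrays, among them Csf1r (6261 to 14299) and Cd68 (8314 to 11234), and Mrc1 was at most 58. The summed signal of 6 osteoclast markers ran from 1064 to 6192 in control cells, from 5598 to 13526 in RANKL cells of days 1 and 2, and from 16555 to 31168 in those of days 4 and 5. The osteoclast markers Calcr and Itgb3 were under 100 on all arrays. Nfatc1, also in this sum, ran from 380 to 4410 in control cells. In RANKL cells it ran from 4548 to 5340 early and from 3075 to 6460 late, so these ranges overlapped. Lists of T cell, B cell, neutrophil, stromal and erythroid markers (24 measured genes) held 0 that passed the test in any of the comparisons below. On the first principal component, RANKL day 5 replicate 2 lay at -10.6, away from the other arrays of days 3 to 5 (12.8 to 32.8) and nearer those of days 1 and 2 (-44.2 to -17.5). Values without it are given beside the results or gathered after the tests between treatments.

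Cd47, the "do not eat me" ligand of SIRPA, was low on days 1 and 2, and high from day 3 in control cells and on days 4 and 5 in RANKL cells. In control cells its probe set 103611_at read 829 on day 1, 609 and 627 on day 2, 1599 and 1738 on day 3, 1672 and 1888 on day 4 and 1470 on day 5. In RANKL cells it read 681 on day 1, 598 and 464 on day 2, 1812 and 1625 on day 4 and 1002 and 1096 on day 5. Every array of days 3 to 5 was above every array of days 1 and 2, and the RANKL arrays of day 5 were the lowest of the late ones.

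The second Cd47 probe set, 95020_at, had the same course. In control cells it gave 207 on day 1, 231 and 274 on day 2, 788 and 894 on day 3, 626 and 907 on day 4 and 690 on day 5. In RANKL cells it gave 216 on day 1, 191 and 159 on day 2, 797 and 821 on day 4 and 552 and 449 on day 5. Early and late arrays did not overlap here either. Of all probe sets, 11.8% were this way apart and higher in late RANKL cells, and 10.7% in control cells of days 3 to 5.

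Between mononuclear and multi-nuclear RANKL cells, the Cd47 log2(signal + 32) rose by 1.12 ± 0.13 (SE) on 103611_at (limma, Benjamini-Hochberg adjusted p = 0.000646), a ratio of 2.18 on that scale. On 95020_at it rose by 1.56 ± 0.17 (adjusted p = 0.00052). Over the same days control cells, which the labels call mononuclear, rose by 1.14 ± 0.14 (adjusted p = 0.00122) and 1.53 ± 0.19 (adjusted p = 0.00108). In RNA from whole cultures, fewer cells of a type and less RNA per cell cannot be told apart.

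Sirpa, the inhibitory receptor of myeloid cells for CD47, followed a like course on 3 probe sets. In control cells 103070_at gave 1492 on day 1, 2368 and 2751 on day 2, 4646 and 5567 on day 3, 4969 and 4839 on day 4 and 3279 on day 5. In RANKL cells it gave 1751 on day 1, 1840 and 1520 on day 2, 4379 and 5216 on day 4, then 2681 and 1876 on day 5. Late RANKL arrays stayed above early ones, but day 5 replicate 2 exceeded the highest early array, at 1840, by little.

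On 95803_at control cells gave 251 on day 1, 556 and 668 on day 2, 1989 and 2096 on day 3, 2014 and 1713 on day 4 and 1404 on day 5. RANKL cells gave 255 on day 1, 618 and 312 on day 2, 1484 and 2049 on day 4 and 1243 and 453 on day 5. In control cells early and late arrays were apart, whereas RANKL day 5 replicate 2 lay among the early RANKL arrays.

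On 95804_g_at control cells gave 769 on day 1, 1244 and 1328 on day 2, 4569 and 5247 on day 3, 3951 and 3593 on day 4 and 4354 on day 5. RANKL cells gave 804 on day 1, 1283 and 628 on day 2, 4176 and 3161 on day 4 and 2611 and 1001 on day 5. Again only RANKL day 5 replicate 2 fell back among the early RANKL arrays.

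All 3 Sirpa probe sets rose from mononuclear to multi-nuclear RANKL cells. The differences were 0.92 ± 0.16 on 103070_at (limma, adjusted p = 0.00357), 1.68 ± 0.31 on 95803_at (adjusted p = 0.00501) and 1.48 ± 0.31 on 95804_g_at (adjusted p = 0.0085). Without RANKL day 5 replicate 2 they were 1.05, 2.03 and 1.82. In control cells they were 1.03 ± 0.18 (adjusted p = 0.00485), 1.95 ± 0.34 (adjusted p = 0.00532) and 1.99 ± 0.34 (adjusted p = 0.00477). Without the control day 1 array, whose Sirpa signals were the lowest of the control arrays, the control difference was 0.65 on 103070_at (adjusted p = 0.0737) and 1.36 on 95803_at (adjusted p = 0.0573), so both calls were lost.

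**Figure D1:**
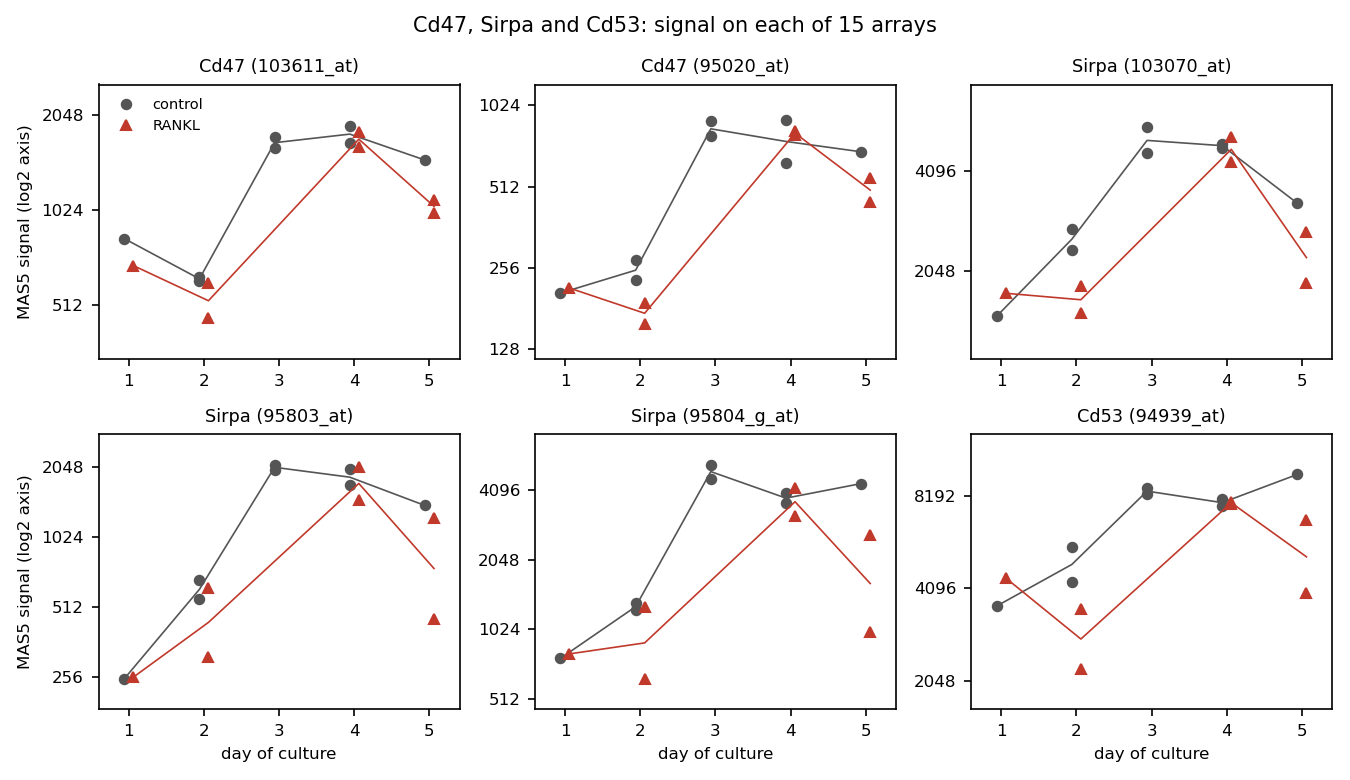
MAS5 signal (log2 axis) against day of culture for the probe sets of Cd47, Sirpa and Cd53. Circles are control arrays, triangles RANKL arrays and lines join the geometric means of each day. All panels are low at days 1 and 2, high in control cells from day 3 and in RANKL cells on day 4, and lower in RANKL cells on day 5.

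Cd53, a tetraspanin found on leukocytes, was the only one of the 7 tetraspanins with a probe set past the threshold for days 4 and 5 against days 1 and 2. Its probe set 94939_at gave 3586 on day 1 in control cells, 5599 and 4292 on day 2, 8678 and 8296 on day 3, 7572 and 8013 on day 4 and 9620 on day 5. With RANKL it gave 4431 on day 1, 2240 and 3514 on day 2, 7721 and 7836 on day 4 and 6821 and 3945 on day 5. The control arrays of days 3 to 5 were all above those of days 1 and 2, while RANKL day 5 replicate 2 was below the RANKL day 1 array.

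The Cd53 rise was 0.84 ± 0.21 in RANKL cells (limma, adjusted p = 0.0219) and 1.04 ± 0.24 in control cells (adjusted p = 0.0171). The call was lost without some single arrays. With RANKL it was 0.68 (adjusted p = 0.0512) without day 2 replicate 1, 0.84 (adjusted p = 0.0559) without day 4 replicate 2 and 0.65 (adjusted p = 0.0621) without day 5 replicate 1. It was 1.04 (adjusted p = 0.00571) without day 5 replicate 2. In control cells it was 0.82 (adjusted p = 0.0884) without the day 1 array, 0.94 (adjusted p = 0.052) without day 2 replicate 2, 1.02 (adjusted p = 0.0538) without day 4 replicate 2 and 0.89 (adjusted p = 0.052) without the day 5 array.

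Across the list, 6 of 20 probe sets rose from mononuclear to multi-nuclear RANKL cells and 0 fell. Over all 12422 probe sets 14.8% passed this test, with 8.98% higher and 5.82% lower. In control cells the same 6 probe sets rose and 0 fell, where 10.9% of all probe sets passed, 5.98% higher and 4.87% lower. Over the whole array 456 probe sets (3.67%) were higher in both. The 6 probe sets belong to Cd47, Sirpa and Cd53 alone. Those of 1 gene correlated at r = 0.93 to 0.97 across the 15 arrays, so they are not separate members of the list. The median difference of the 20 probe sets was 0.04 in RANKL cells and 0.15 in control cells, beside 0.05 and -0.04 over all probe sets. These 2 comparisons share no arrays, but both use the same variance estimate of each probe set, so their calls are not independent. Over the 16 probe sets above 100 on some array their differences correlated at r = 0.93, with probe sets of 1 gene counted apart. This correlation was not computed over all probe sets, so it is not shown to be particular to the list.

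RNA quality, read from the ratio of 3′ to 5′ beta-actin probe sets, also moved with time. It ran from 1.17 to 1.25 on control arrays of days 1 and 2 and from 1.01 to 1.16 on those of days 4 and 5, and in RANKL cells from 1.19 to 1.39 and from 1.02 to 1.34. With this ratio as a covariate, 5 of the 6 calls held in RANKL cells, and Sirpa 95804_g_at (1.30 ± 0.38, limma adjusted p = 0.0618) did not. In control cells 1 of 6 held, Cd47 95020_at (1.60 ± 0.28, adjusted p = 0.0302). The other control differences then ran from 0.95 to 2.07 (1.03 to 1.99 without the covariate), with adjusted p from 0.0502 to 0.114. Their standard errors were larger than without it. Over all probe sets the calls fell too, by a larger share in control cells, as given in the last section.

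**Figure D2:**
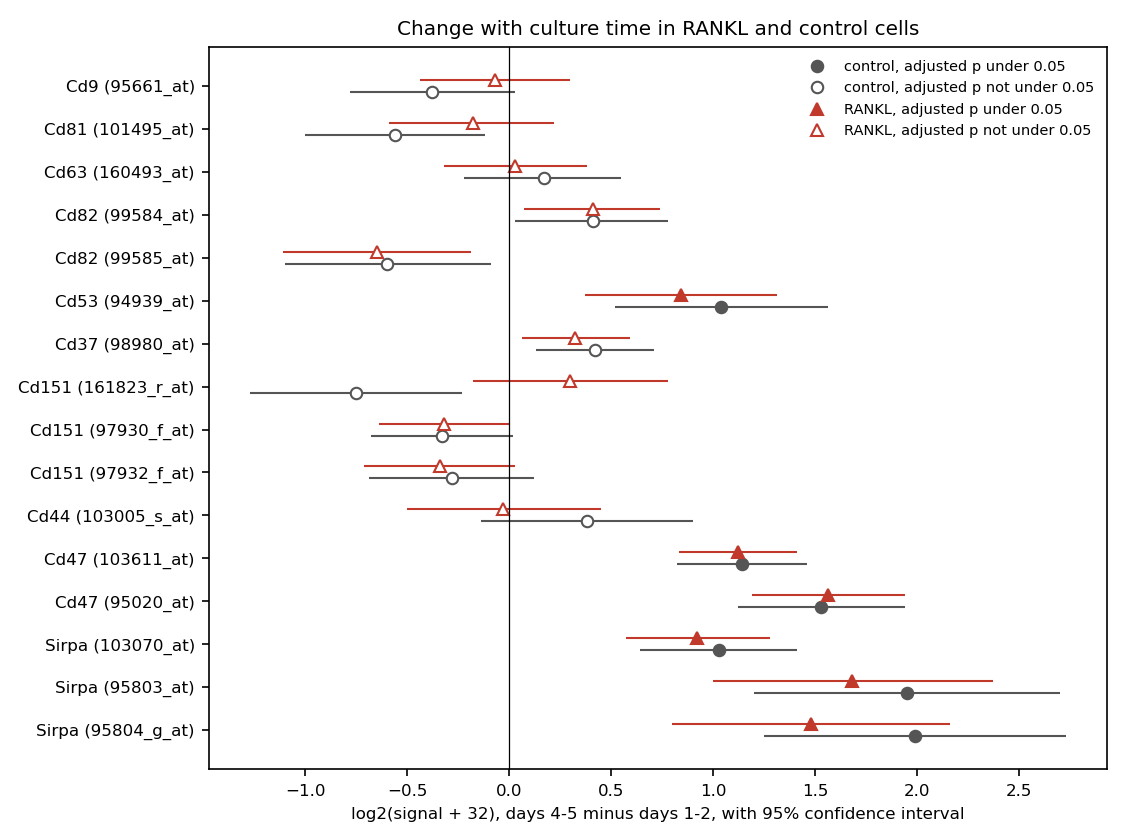
Log2(signal + 32) of days 4 and 5 minus that of days 1 and 2, with 95% confidence intervals from limma, for the 16 brighter probe sets. Circles are control cells and triangles RANKL cells, filled where the adjusted p was under 0.05; the filled marks are those of Cd47, Sirpa and Cd53 in both treatments.

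Single days were compared after the values had been seen, to place the rise in time. In control cells 6 of 20 probe sets rose from day 2 to day 3, where 7.08% of all probe sets passed and 4.09% were higher. Cd47 rose by 1.39 ± 0.17 (limma, adjusted p = 0.00259) and 1.62 ± 0.22 (adjusted p = 0.00357). The 3 Sirpa probe sets rose by 0.99 (adjusted p = 0.0166), 1.69 (adjusted p = 0.0284) and 1.90 (adjusted p = 0.0166), and Cd82 99584_at by 0.73 ± 0.20 (adjusted p = 0.0466). Cd53 was higher by 0.79 without passing (adjusted p = 0.109). The Cd82 call was lost in 15 of 22 alternatives, among them the replicate block (adjusted p = 0.0575). The count of 6 fell to 1 without control day 2 replicate 1, to 2 without day 2 replicate 2, to 3 without day 3 replicate 1, to 2 without day 3 replicate 2, and to 2 with the actin ratio as a covariate.

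In RANKL cells 8 of 20 probe sets changed from day 2 to day 4, where 12.5% of all passed with 7.08% higher and 5.45% lower. Of these, 7 rose: Cd47 by 1.64 and 2.03, Sirpa by 1.50, 1.91 and 1.98, Cd53 by 1.46 ± 0.27 (adjusted p = 0.00543) and Cd37 by 0.94 ± 0.15 (adjusted p = 0.00299). Cd82 99585_at fell by 0.93 (adjusted p = 0.0407). Without RANKL day 2 replicate 2, 5 were called, since Cd82 (-0.70, adjusted p = 0.261), Sirpa 95803_at (1.45, adjusted p = 0.102) and 95804_g_at (1.48, adjusted p = 0.0829) no longer passed. Sirpa 95803_at was also lost without RANKL day 4 replicate 2 (1.68, adjusted p = 0.0728) and 95804_g_at without day 4 replicate 1 (1.78, adjusted p = 0.0515). The Cd82 call was lost as well without either RANKL array of day 4 and without any control array of days 2 to 4. From day 4 to day 5, 3 of 20 fell in RANKL cells where 0.636% of all probe sets passed and 0.411% were lower: Cd37 (-0.81 ± 0.15), Cd151 97930_f_at (-1.02 ± 0.18) and Sirpa 103070_at (-1.08 ± 0.20), each with an adjusted p of 0.0435. Of 22 alternatives these calls were lost in 16, 14 and 15. Leaving out RANKL day 4 replicate 2 or RANKL day 5 replicate 2, or any array of control days 2 to 4 or RANKL day 2, left 0 of the 3. Leaving out RANKL day 4 replicate 1 left 1, Cd151. Without RANKL day 5 replicate 1 the first Sirpa call held, and Sirpa 95803_at (-1.87, adjusted p = 0.0254) and 95804_g_at (-1.83, adjusted p = 0.0282) passed too.

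Cd9, one of the most studied tetraspanins in cell fusion, had a higher mean signal with RANKL on each day compared, but the difference did not pass. Its probe set 95661_at gave 4617 on day 1 in control cells, 5622 and 4675 on day 2, 4367 and 3565 on day 3, 4204 and 3915 on day 4 and 3448 on day 5. With RANKL it gave 6632 on day 1, 5589 and 6413 on day 2, 5609 and 8478 on day 4 and 5387 and 5066 on day 5. All 4 late RANKL arrays were above the 3 control arrays of those days, as for 5.26% of all probe sets. At day 2 the treatments overlapped, and RANKL day 4 replicate 2 was the highest array.

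Over days 1, 2, 4 and 5 Cd9 was higher with RANKL by 0.52 ± 0.13, with a 95% confidence interval of 0.25 to 0.80 (limma, adjusted p = 0.0831). By day the difference was 0.52 on day 1 (1 array against 1, no test), 0.22 ± 0.21 on day 2, 0.76 ± 0.21 on day 4 and 0.60 ± 0.26 on day 5. The difference over the 4 days passed in 2 of 23 alternatives. In 1 of them tests were limited to the upper 50% of probe sets by signal (adjusted p = 0.037). The other left out RANKL day 4 replicate 1 (0.60), so that day 4 rested on replicate 2 alone, the highest array at 8478. From mononuclear to multi-nuclear RANKL cells Cd9 differed by -0.07 ± 0.17 (-0.44 to 0.30). In control cells it was lower at days 4 and 5 by -0.38 ± 0.19 (adjusted p = 0.247). All 5 control arrays of days 3 to 5 were below the 3 of days 1 and 2, as for 10% of all probe sets.

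**Figure D3:**
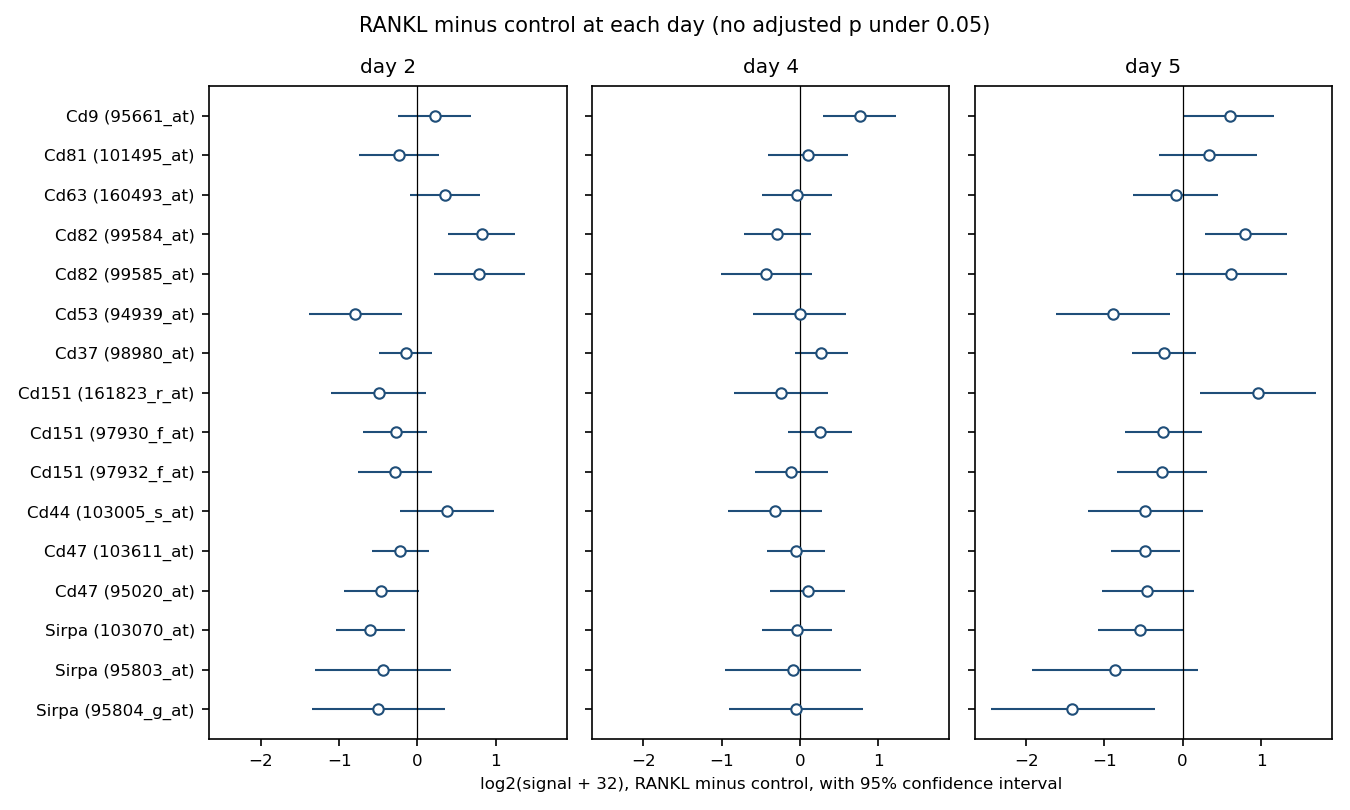
RANKL minus control in log2(signal + 32) at days 2, 4 and 5, with 95% confidence intervals from limma, for the 16 brighter probe sets. No adjusted p was under 0.05; the Cd9 estimates are 0.22, 0.76 and 0.60, above 0 on each of the 3 days.

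Between treatments, 0 of the 20 probe sets passed over days 1, 2, 4 and 5, where 1.09% of all probe sets did (136). At an unadjusted p under 0.05, 3 of 20 and 11.1% of all passed. At single days 0 of 20 passed, beside 0.853% of all on day 2, 0.266% on day 4 and 0.918% on day 5. At an unadjusted p under 0.05 the counts were 5, 1 and 6 of 20, beside 10.1%, 8.13% and 14.2% of all. Over the 4 days the intervals of the RANKL minus control difference were -0.47 to -0.04 and -0.47 to 0.09 for Cd47, and -0.70 to 0.00 for Cd53. For Sirpa they were -0.50 to 0.02, -0.85 to 0.16 and -0.98 to 0.03. At single days Cd53 was at -0.80 ± 0.27 on day 2 (-1.39 to -0.20), 0.00 on day 4 and -0.89 ± 0.33 on day 5 (-1.62 to -0.16). At day 5 Sirpa 95804_g_at was at -1.41 ± 0.48 (adjusted p = 0.205). Without RANKL day 5 replicate 1 it was at -2.09 (adjusted p = 0.0196), which leaves replicate 2 alone in that group.

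Whether the change with culture time differed between treatments was tested as the late minus the early RANKL effect. It passed for 0 of 20 probe sets and for 5 of 12422 (0.0403%), and at an unadjusted p under 0.05 for 1 of 20 and 998 (8.03%). For Cd47 it was -0.02 ± 0.20 (-0.45 to 0.41) and 0.03 ± 0.25 (-0.53 to 0.59), and for Cd53 -0.20 ± 0.32 (-0.89 to 0.50). For Sirpa it was -0.10 ± 0.24 (-0.62 to 0.42), -0.27 ± 0.46 (-1.29 to 0.75) and -0.51 ± 0.46 (-1.51 to 0.49). The 1 probe set was Cd151 161823_r_at, at 1.05 ± 0.32 (limma, adjusted p = 0.485). Over culture time it gave -0.75 in control cells (adjusted p = 0.0696), with 691 on day 1 and 277 on day 5, and 0.30 in RANKL cells. The control difference passed without RANKL day 4 replicate 1 or replicate 2 (adjusted p = 0.04 and 0.0408), which enter it through the shared variance alone.

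Without RANKL day 5 replicate 2, the 6 probe sets of Cd47, Sirpa and Cd53 still rose from mononuclear to multi-nuclear RANKL cells. Cd47 was then at 1.09 ± 0.15 (limma, adjusted p = 0.00108) and 1.63 ± 0.19 (adjusted p = 0.000603). Cd82, whose brighter probe sets differed by 0.56 and -0.76, is taken up in its own paragraphs below. The remaining genes differed by -0.05 ± 0.19 for Cd9, -0.36 ± 0.16 for Cd81, 0.12 ± 0.17 for Cd63, 0.31 ± 0.14 for Cd37 and 0.16 ± 0.20 for Cd44, and by 0.33, -0.30 and -0.36 for the 3 brighter Cd151 probe sets, none past the threshold. Over the 4 days RANKL minus control was 0.54 for Cd9 (adjusted p = 0.12), -0.27 and -0.15 for Cd47, -0.25 for Cd53 and -0.17, -0.17 and -0.31 for Sirpa, again with none past it. On day 5 alone, where replicate 1 then stood alone, it was 0.64 for Cd9, -0.49 for Cd53 and -0.29, -0.17 and -0.73 for Sirpa, so the day 5 deficits of Sirpa were smaller. The late minus early RANKL effect was -0.05 and 0.10 for Cd47, 0.00 for Cd53 and 0.03, 0.08 and -0.17 for Sirpa.

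Cd82, a tetraspanin also known as KAI1 and as a suppressor of metastasis, had 2 brighter probe sets that went opposite ways in time. On 99584_at control cells gave 1494 on day 1, 786 and 842 on day 2, 1422 and 1323 on day 3, 1826 and 1922 on day 4 and 1156 on day 5. RANKL cells gave 1205 on day 1, 1556 and 1366 on day 2, 1475 and 1585 on day 4 and 2539 and 1635 on day 5. The highest array was RANKL day 5 replicate 1, and the lowest were the control arrays of day 2.

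On Cd82 99585_at control cells gave 539 on day 1, 218 and 270 on day 2, 201 and 163 on day 3, 287 and 320 on day 4 and 173 on day 5. RANKL cells gave 374 on day 1, 372 and 525 on day 2, 182 and 258 on day 4 and 237 and 337 on day 5. All 4 multi-nuclear RANKL arrays were below the 3 mononuclear ones, a split that 8.24% of all probe sets showed in this direction.

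Neither Cd82 probe set passed from mononuclear to multi-nuclear RANKL cells, with 0.41 ± 0.15 on 99584_at (adjusted p = 0.106) and -0.65 ± 0.21 on 99585_at (limma, adjusted p = 0.0594). Without RANKL day 5 replicate 2 both passed, at 0.56 (adjusted p = 0.0153) and -0.76 (adjusted p = 0.0435). The second was also at -0.76 without RANKL day 2 replicate 1. It passed in 6 of 24 alternatives, among them quantile normalization (-0.84, adjusted p = 0.0253) and arrays weighted equally (-0.69, adjusted p = 0.0409). In control cells 99584_at gave 0.41 (adjusted p = 0.166) and 99585_at -0.60 (adjusted p = 0.132). The first passed without the control day 1 array (0.83, adjusted p = 0.0253) and without the control day 5 array (0.75, adjusted p = 0.0273). It passed in 4 of 24 alternatives, among them arrays weighted equally (0.66, adjusted p = 0.0225). At day 2 RANKL cells were higher than control cells on 99584_at by 0.82 ± 0.20 (adjusted p = 0.101) and on 99585_at by 0.79 ± 0.27 (adjusted p = 0.285). Both probe sets were higher on both RANKL arrays than on both control arrays of that day, as were 18.8% of all. The day 2 difference of 99584_at passed without either RANKL array of day 5 (0.82 both times, adjusted p = 0.0284 and 0.0285), arrays that enter it through the shared variance alone.

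Cd37, a leukocyte tetraspanin, read from 1718 to 3453. In control cells 98980_at gave 1796 on day 1, 1780 and 2122 on day 2, 2677 and 2746 on day 3, 2998 and 2577 on day 4 and 2268 on day 5. With RANKL it gave 2341 on day 1, 1769 and 1718 on day 2, 3279 and 3453 on day 4 and 1878 and 1947 on day 5. Day 4 was the highest day with RANKL, and the day 5 arrays were back in the early range. The difference of the late and early days was 0.32 ± 0.12 in RANKL cells (limma, adjusted p = 0.0974) and 0.42 ± 0.13 in control cells (adjusted p = 0.0663). It passed without the RANKL day 1 array in RANKL cells (0.53, adjusted p = 0.0226), and without the control day 5 array in control cells (0.57, adjusted p = 0.0313). With all arrays kept, it passed in RANKL and control cells after quantile normalization (adjusted p = 0.0441 and 0.0374). Equal array weights did the same (adjusted p = 0.0413 and 0.04). The difference passed in 4 of 24 alternatives in RANKL cells and in 3 of 24 in control cells.

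Cd81, a close relative of Cd9, and Cd63, the endosomal tetraspanin, did not pass in any comparison. Cd81 101495_at ran from 323 to 572, and the 5 control arrays of days 3 to 5 (323 to 398) were below the 3 of days 1 and 2 (463 to 572), with a difference at days 4 and 5 of -0.56 ± 0.20 (limma, adjusted p = 0.106). In RANKL cells the difference was -0.18 ± 0.18, and the late arrays (324 to 541) overlapped the early ones (434 to 516). Cd63 160493_at ran from 5511 to 8934, with differences of 0.03 ± 0.16 (-0.32 to 0.38) in RANKL cells and 0.17 ± 0.18 (-0.22 to 0.55) in control cells. Lower Cd81 on late control arrays was shared by 10% of all probe sets for groups that do not overlap in this direction.

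Cd151, a tetraspanin that binds laminin-type integrins, had 3 brighter probe sets that did not pass over culture time. From mononuclear to multi-nuclear RANKL cells 161823_r_at gave 0.30 ± 0.22, 97930_f_at -0.32 ± 0.15 and 97932_f_at -0.34 ± 0.17. The signals of 97930_f_at ran from 513 to 1273 and were lowest on the RANKL arrays of day 5 (549 and 513). Cd44 103005_s_at, for the hyaluronan receptor, ran from 653 to 1384 with no order by day, and gave -0.03 ± 0.22 (-0.50 to 0.45) in RANKL cells and 0.38 ± 0.24 (-0.14 to 0.90) in control cells. The 4 other probe sets were under 100 on all arrays: Cd82 161861_i_at (at most 30), Cd151 97931_i_at (at most 8), Cd44 103003_i_at (at most 13) and Cd44 103004_r_at (at most 27). Such dim values carry little information on their genes. The letters f, g, i, r and s in these names are the manufacturer's marks for probe sets that may match other transcripts or that were built with relaxed rules.

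**Figure D4:**
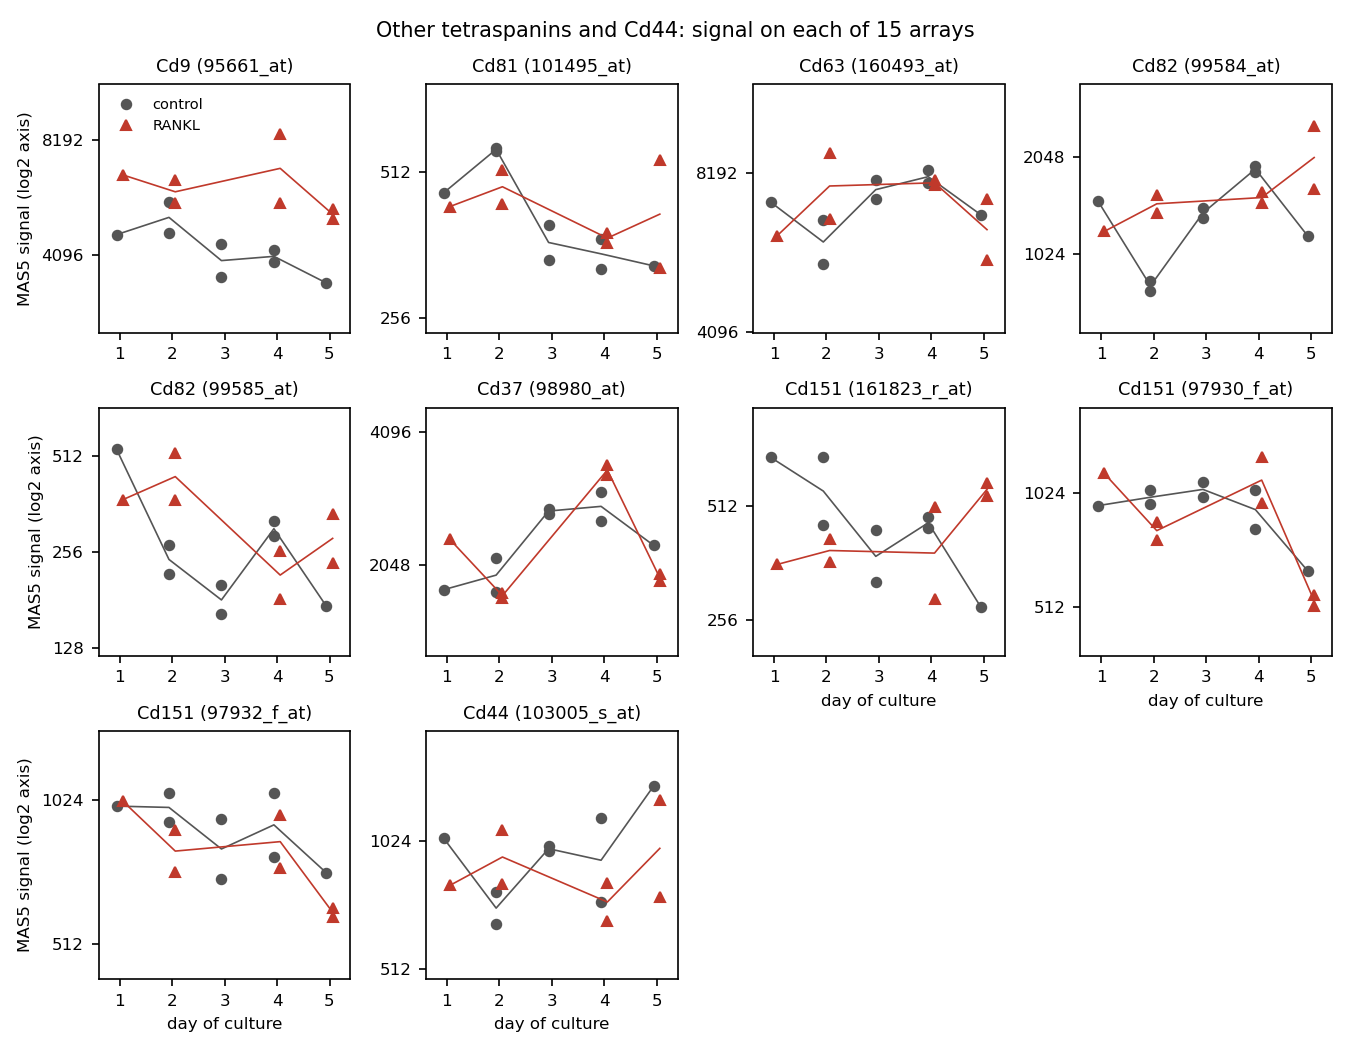
MAS5 signal (log2 axis) against day of culture for the brighter probe sets of Cd9, Cd81, Cd63, Cd82, Cd37, Cd151 and Cd44. Circles are control arrays, triangles RANKL arrays and lines join the geometric means of each day; the 4 late RANKL arrays of Cd9 lie above the 3 late control arrays.

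Related genes were read from lists chosen for their known roles, each by its brightest probe set. Their counts stand beside 8.98% higher and 5.82% lower over all probe sets in RANKL cells, and 5.98% and 4.87% in control cells, and shares near these say nothing particular of a list. Of 13 other tetraspanins, 0 rose and 1 fell from mononuclear to multi-nuclear RANKL cells: Tspan4, a tetraspanin of migrasomes, at -1.28 ± 0.16 (limma, adjusted p = 0.000887), and at -0.84 in control cells (adjusted p = 0.0127). Tspan13 rose in control cells (0.90, adjusted p = 0.0462) and gave 0.73 in RANKL cells (adjusted p = 0.061), and the difference between the treatments was -0.18 (adjusted p = 0.929). The Tspan13 call was lost without RANKL day 5 replicate 2 (adjusted p = 0.0592), which enters it through the shared variance alone. The list's median was -0.07 in RANKL cells, beside 0.05 over all probe sets, and -0.24 in control cells, beside -0.04. Tspan3, Tspan6, Tspan8, Tspan12, Tspan32, Prph2 and Rom1 were under 100 on all arrays, so the counts and medians say little of them. The lists below hold such dim genes too.

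Of 29 genes for proteins that tetraspanins bind or sort, 7 rose in RANKL cells and 0 fell, with a median of 0.15. They were the integrin chains Itgb1 (0.65), Itgb2 (1.02) and Itgb7 (1.55), the sheddase Adam10 (0.88), the invariant chain Cd74 (1.46), the exosome adaptor Sdcbp (1.24) and the sorting adaptor subunit Ap3m1 (0.67). In control cells 5 rose (Itgb2, Itgb7, Cd74, Sdcbp and Ap3m1) and 0 fell, with a median of 0.11. Galectin-9 (Lgals9) was lower with RANKL over the 4 days (-1.77, adjusted p = 0.00592).

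Of 17 genes of CD47 and SIRPA signalling, 4 rose in RANKL cells and 0 fell, with a median of 0.25. They were the GTPase Rap1a (1.25), the phagocytic receptor Lrp1 (1.05), the integrin chain Itgav (0.61) and Ptpn6 (0.54), which encodes the phosphatase SHP-1. In control cells 4 rose, namely Rap1a, Lrp1, Ptpn6 and the kinase Fgr, and Itgav fell by 1.68, with a list median of 0.12. The difference between treatments in the Itgav time course was 2.29 ± 0.27 (limma, adjusted p = 0.01). When RANKL day 5 replicate 2 was left out, Itgav gave 0.52 in RANKL cells and no longer passed (adjusted p = 0.106), while the difference between treatments was 2.20 ± 0.28 (adjusted p = 0.0275). Of 17 lysosomal membrane and endosomal genes beside Cd63, 5 rose with RANKL (Lamp2 1.79, Vps4b 0.98, Slc11a2 0.92, Rab7 0.86 and Npc1 0.82) and 4 in control cells, with 0 that fell in either and medians of 0.32 and 0.51.

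Of 26 other genes of macrophage and osteoclast fusion, 7 rose and 0 fell in RANKL cells: Mmp9 (3.38), Ccl2 (1.54), Dock5 (1.46), Adam9 (1.32), Sema4d (0.98), Cyth3 (0.83) and Itgav (0.61), with a median of 0.11. In control cells 4 rose (Ccl2, Cyth3, Adam9 and Rac2) and Itgav fell, with a median of 0.01. The RANKL counts were 5 higher and 1 lower without RANKL day 5 replicate 2, since Cyth3 (adjusted p = 0.0508) and Itgav no longer passed and Adam12 did, at -0.69 (adjusted p = 0.0276). Adam12 was at most 42 on any array, so its change carries little information. With RANKL, 3 of the 26 genes were higher over the 4 days: Mmp9 (2.24), Dock5 (1.38) and Itgav (1.33). Anxa8, at most 51 on any array, was lower (-0.58). Of all probe sets 1.09% passed that test. Dcstamp, Ocstamp and Atp6v0d2, which are central to osteoclast fusion, had no probe set named here. Of 20 ligands and partners of CD44, 5 rose in RANKL cells (Mmp9, Adam10, Msn, Srgn and Iqgap1) and 0 fell, and 4 rose without RANKL day 5 replicate 2, Iqgap1 being lost (adjusted p = 0.0504). In control cells 2 rose, Iqgap1 (0.81) and Srgn (0.98), and Esrp1, a splicing regulator of CD44, fell by 0.77. The Esrp1 call was lost without RANKL day 5 replicate 2, which enters it through the shared variance alone. Esrp1 was at most 50 on any array, so its change carries little information.

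Of 8 macrophage markers, 3 rose in RANKL cells and 0 fell, and 4 rose in control cells and 0 fell. Itgam (2.40 in RANKL cells, 2.56 in control cells), Ptprc (2.03 and 1.42) and Adgre1 (1.33 and 1.37) rose in both, beside Cd47 and Sirpa. Fcgr1, an IgG receptor, rose in control cells alone by the threshold (1.75, limma adjusted p = 0.0478, against 0.28 in RANKL cells), and that difference between treatments did not pass. Csf1r (0.11 and 0.28), Cd68 (-0.02 and 0.01), Lyz2 (-0.29 and -0.25) and the dim Mrc1 (0.21 and 0.28) did not pass in either. Over the 4 days 3 of the 8 were lower with RANKL: Adgre1 (-0.76, adjusted p = 0.00618), Itgam (-1.08, adjusted p = 0.0171) and Fcgr1 (-1.77, adjusted p = 0.0318). Their part in the rise was not tested.

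**Figure D5:**
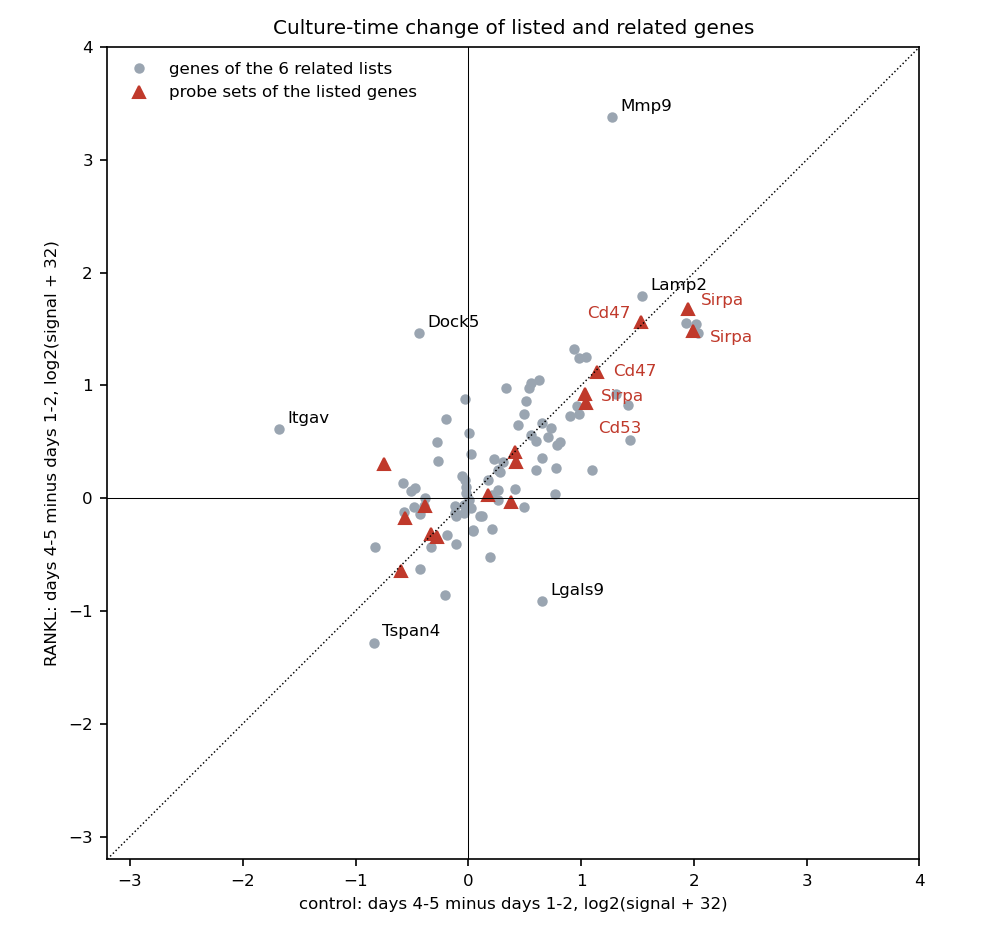
Change from days 1 and 2 to days 4 and 5 in control cells (x axis) and RANKL cells (y axis), in log2(signal + 32). Grey circles are the 84 related genes above 100 on some array and red triangles the 16 brighter probe sets of the listed genes, with a dotted line of equal change; Cd47, Sirpa and Cd53 lie high on both axes and near that line, and 43 of the related genes are above 0 on both.

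Across the 15 arrays, which share culture day, Cd47 and Sirpa signals correlated at r = 0.84 to 0.93, Cd53 with Cd47 at 0.82 and 0.88, and Cd53 with Sirpa at 0.82 to 0.87. Cd37 correlated with Sirpa at 0.75 to 0.86, with Cd47 at 0.82 and 0.78 and with Cd53 at 0.71. Cd81 ran the other way, at -0.63 to -0.79 with Sirpa, -0.73 and -0.71 with Cd47 and -0.69 with Cd53, as did Cd82 99585_at, at -0.73 to -0.81, -0.60 and -0.71, and -0.76. Over the 9 group means, the genes most like Cd47 103611_at among 4822 candidates were Csnk1e (r = 0.985), Plxna1 (0.982) and Grb2 (0.978). Those most like Sirpa 103070_at were Il6st (0.983), Neu1 (0.979) and Sidt2 (0.978). Those most like Cd53 were Retreg1 (0.995), Cdk18 (0.986) and Mycn (0.983). For Cd82 99584_at the nearest was Dtx2 at 0.869, and for Cd151 97930_f_at it was Crip1 at 0.952. With 9 points and this many candidates, values of this size are given as a description.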

How the data were processed

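RNA of 15 samples was measured on 1-colour Affymetrix arrays. The deposited values are intensities per probe set, made by the authors with MAS5, per the submitters' processing notes; its version is not given in the sources used here. The 2% trimmed mean was 500 on each array, so no further normalization was applied. Of 12488 probe sets, 66 controls were left out. The annotation gives 1 gene for 10833 probe sets, several for 396 and none for 1193.

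Values were taken as log2(signal + 32), with no filter, and differences are on that scale, which understates changes of dim probe sets. A model with 1 mean for each of 9 groups was fitted with limma 3.58.1 in R 4.3.3 (lmFit, eBayes with trend), with 6 residual and 5.39 prior degrees of freedom. For the 3 groups with a single array, the spread of the other groups stands in. All tests are two-sided, with Benjamini-Hochberg adjustment over 12422 probe sets in each comparison and a threshold of 0.05. Late minus early differences are the mean of days 4 and 5 minus the mean of days 1 and 2. There were 7 comparisons, and 3 of adjacent days were added after the values were seen. The number of arrays limits the precision.

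The genes, lists and tests were chosen with earlier results of these data known. All probe sets of the listed genes are reported; from each related list, members past the threshold in RANKL cells over time come first. Likeness of pattern was computed for genes whose group means span at least 1 log2 unit, and the 3 nearest genes were kept. Results were recomputed with pseudocounts of 1 and 100, after quantile normalization, in the upper 50% of probe sets, with no trend, with a replicate block, with the actin ratio as a covariate, with arrays weighted equally, with no day 1 arrays, and without each array in turn. Replicate arrays correlated at r = 0.975 to 0.984, and 0 pairs were identical.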

Additional observations from a re-analysis of the deposited data

Results flagged for a closer look

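Among the related genes, the change of Itgav over culture time differed between treatments by the test of the difference itself: it was 0.61 in RANKL cells and -1.68 in control cells, a difference of 2.29 (limma, adjusted p = 0.01). Of the 20 probe sets of the listed genes 0 passed this test.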

How the results depend on the processing

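No difference of a listed gene that passed in any comparison changed sign under the alternatives. Signal over background limits the 4 dim probe sets, and groups of 1 or 2 arrays limit every test. The cause of the changes below was not tested, beyond the fewer probe sets or arrays that some alternatives hold.

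With the actin ratio as a covariate, the calls over all probe sets fell from 1839 to 1086 for culture time with RANKL, from 1348 to 169 in control cells, from 136 to 64 for RANKL over the 4 days, from 106 to 34 at day 2, from 33 to 12 at day 4, from 880 to 152 for control day 3 minus day 2 and from 79 to 0 for RANKL day 5 minus day 4. The listed genes' calls then fell from 6 to 1 for control culture time, from 6 to 2 for control day 3 minus day 2 and from 3 to 0 for RANKL day 5 minus day 4. Without either day 1 array the calls were 704 for control culture time, 2 for the late minus early RANKL effect (5 otherwise) and 432 for RANKL over the days. In the upper 50% of probe sets they were 12 for late minus early, 218 over the days with 1 listed probe set (Cd9), 244 at day 5 (114 otherwise) and 147 for RANKL day 5 minus day 4. With no intensity trend they were 3 for late minus early, 68 at day 2 and 34 for RANKL day 5 minus day 4, with 0 listed probe sets.

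Whether the replicate numbers pair the arrays is not stated. Over 15 pairs of groups, replicate 1 minus 2 differences correlated at -0.17 to 0.12. That shows no strong common replicate effect and cannot exclude pairing. With the replicate block the calls were 64 at day 5 and 36 for RANKL day 5 minus day 4, with 0 listed probe sets (3 without the block). In RANKL culture time the block gave Cd82 99585_at -0.71 (limma, adjusted p = 0.0376), which then passed, and Cd53 0.86 (adjusted p = 0.0312).

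Leaving out each array in turn gave 1146 to 1972 calls for RANKL culture time (5 to 8 listed probe sets), 700 to 1410 for control culture time (4 to 7), 2 to 21 for late minus early (0 to 0), 11 to 427 over the days (0 to 1), 2 to 147 at day 2 (0 to 1), 9 to 54 at day 4 (0 to 0) and 52 to 355 at day 5 (0 to 1). It gave 49 to 981 for control day 3 minus day 2 (1 to 6), 541 to 1607 for RANKL day 4 minus day 2 (5 to 8) and 14 to 181 for RANKL day 5 minus day 4 (0 to 3). Where 1 array of a pair is left out, the lone array is assumed to vary like the other groups, and where the only array of a day is left out, that day leaves the mean. RANKL minus control at day 5 has no value without the control day 5 array.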
